A study of Mus musculus with 6 samples.

Results

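The genes described here restrain antigen receptor signalling or take part in the unresponsive state called anergy: the ubiquitin ligases Itch, Cblb and Cbl, the phosphatase Ptpn22, the diacylglycerol kinases Dgka and Dgkz, the transcription factors Nfatc1 and Nfatc2, and the corepressor Nab2. Every probe set whose only gene symbol was one of these 9 names was taken, over all 6 arrays. This gave 26 probe sets of the 34945 that carry 1 symbol, among 45101 on the array. Itch had 4 probe sets, Cblb 3, Cbl 3, Dgkz 2, Nfatc1 5 and Nfatc2 6, while Ptpn22, Dgka and Nab2 had 1 each.

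An immature B cell whose receptor binds a self antigen can edit its light chain genes, die, or persist in an anergic state in which the receptor signals weakly. In anergic lymphocytes calcium and NFAT signalling persist while the NF-κB and Ras branches are blunted. Ubiquitin ligases of the Cbl and HECT families tag signalling proteins for sorting or degradation, diacylglycerol kinases consume the lipid that activates RasGRP and protein kinase C, and PTPN22 removes activating phosphates from Src-family kinases. TAK1, the kinase encoded by Map3k7, carries receptor signals to NF-κB and the MAP kinases.

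B cells came from the bone marrow of C57BL/6 mice of both sexes, 8 to 12 weeks old, after depletion with antibodies to DX5, Gr1, CD11b, Ter119 and CD3. They were sorted for surface Igκ or Igλ, the 2 light chain types. The 3 groups, with 2 arrays each, were Igκ+ cells labelled mb-1/TAK1f/f, Igκ+ cells labelled mb-1/TAK1+/+ and Igλ+ cells labelled mb-1/TAK1+/+, and below they are called TAK1-deficient for the first and wild-type for the others. The mb-1 element is thus shared by all groups. It is another name of the B cell gene Cd79a, and the labels do not say what it stands for in these mice, how far TAK1 was lost or whether samples came from separate animals or pools. The comparisons ask how the regulators differed with TAK1 at the same light chain, and with the light chain at the same genotype.

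The TAK1-deficient arrays stood apart from the rest. Values are array signals on a linear scale, which the authors' software had scaled to the same trimmed mean on each array. After that scaling the spiked hybridization controls, added in equal amount to every array, had a geometric mean of 44120 ± 4134 (SD, n = 2) on the TAK1-deficient arrays against 3990 ± 6.82 (n = 2) on wild-type Igκ+ and 4541 ± 94.7 (n = 2) on wild-type Igλ+ arrays. The median signal over all probe sets was 324 ± 0.943 against 49.4 ± 6.38 and 56.4 ± 3.87 in the same order. Actb signal at the 3′ end over that at the 5′ end, a measure of RNA length, was 5.23 ± 1.49 against 1.48 ± 0.0185 and 1.41 ± 0.236. Whether these array differences account for a change below was not tested, and with each genotype confined to its own arrays of Igκ+ cells they and the genotype cannot be told apart. Map3k7 itself read 346 and 599 on the TAK1-deficient arrays, 2196 and 1805 on wild-type Igκ+ and 2149 and 1957 on wild-type Igλ+ arrays, a log2 change of -2.09 ± 0.27 (SE) between the Igκ+ groups (limma, Benjamini-Hochberg adjusted p = 0.000184). Among genes of like brightness in wild-type cells the median change was -1.50 and 88.3% were called lower. With an adjustment for that brightness, described below, Map3k7 was at -0.62 and did not pass (limma, adjusted p = 0.0788). The labels do not say which part of the gene was removed, and this reading checks the genotype little.

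B cell markers were present in every sample. The 11 measured markers of B cell identity summed to signals between 68468 and 94924. With the deposited scaling 4 of these were higher and 4 lower in TAK1-deficient Igκ+ cells (limma), beside 26.1% of all genes higher and 49.8% lower. With scaling on the spiked controls all 11 were lower (median -3.69, against -3.94 for all genes). With the brightness adjustment 6 were higher and 1 lower. The sums alone therefore do not show equal B cell content. T cell markers (11 genes) summed to 5867 and 6267 on the TAK1-deficient arrays and to between 256 and 677 on the 4 wild-type arrays, and Trat1, a T cell adaptor, was no brighter than unspiked control probe sets on all 4 wild-type arrays. Stromal and endothelial markers (10 genes) summed to 6569 and 6335 against 1033 to 1344. These sums are on the deposited scale, on which most dim probe sets read higher in TAK1-deficient cells. The 7 T cell markers bright enough to test had a median log2 change of 2.93 there, 0.47 with quantile normalization and -0.0045 with scaling on the spiked controls, where 2 were higher and 1 lower. Several of these 7 were bright enough only through the TAK1-deficient arrays, so these values are no support for a difference. Bcl11b, 1 of them, read 2431 and 2313 on those arrays and between 5.07 and 18.9 on the wild-type arrays. Plasma cell markers (8 genes) summed to 6002 and 7720 on the TAK1-deficient arrays, 34555 and 27347 on the wild-type Igκ+ arrays and 24755 and 14674 on the wild-type Igλ+ arrays. With the deposited scaling 6 of these 8 were lower and 2 higher (median -1.80, limma), and with the brightness adjustment 3 were lower and 0 higher. Granulocyte markers (10 genes) summed to 39404 on the first wild-type Igλ+ array, 5423 on the first wild-type Igκ+ array, 8217 and 8757 on the TAK1-deficient arrays and 332 and 335 on the remaining wild-type arrays. Several of the regulators, Itch, Cblb, Dgka, Dgkz and Nfatc2 among them, are also known from T cells, and the part of other cells in their signals was not tested.

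RefSeq promoter windows of build GRCm38.p6 were taken for 7 of the 9 genes, 13 windows in all. Nfatc1 is not covered here, and no window was found for Itch. Of the 13 windows, 2 are shown as examples. They hold matches to motifs of factors that stand among these genes or bind their products, as others of the 13 also do. The first is a window of Nfatc2, chr2:168601658-168601907 on the minus strand, with its 3 matches to the NFAT core GGAAA, on either strand, in capitals. The second is the window of Cbl, chr9:44234047-44234296 on the minus strand, with its match to the EGR motif GCGNGGGCG, on either strand, in capitals. This window also holds 3 NFAT core matches, left in lower case. EGR factors are the partners that Nab2 represses. Both run 5′ to 3′ over the 250 bases before an annotated transcript start.
Nfatc2: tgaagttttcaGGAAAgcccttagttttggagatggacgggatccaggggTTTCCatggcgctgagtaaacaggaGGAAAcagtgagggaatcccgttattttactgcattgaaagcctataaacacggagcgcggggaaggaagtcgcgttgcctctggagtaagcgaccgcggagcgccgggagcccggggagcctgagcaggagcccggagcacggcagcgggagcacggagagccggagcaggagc
Cbl: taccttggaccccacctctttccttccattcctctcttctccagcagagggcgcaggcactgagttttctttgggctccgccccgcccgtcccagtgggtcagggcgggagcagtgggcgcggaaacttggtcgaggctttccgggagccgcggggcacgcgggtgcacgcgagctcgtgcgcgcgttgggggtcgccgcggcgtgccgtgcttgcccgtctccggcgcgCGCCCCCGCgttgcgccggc
NFAT core matches occurred in 9 of the 13 windows, from 6 of the 7 genes, and in 55.6% of all 32851 windows of this length. The EGR motif was found in 1 of the 13 windows and in 4.7% of all windows. The AP-1 motif TGANTCA, in 6.75% of all windows, and the NF-κB motif, in 4.11%, matched in 0 of the 13. The 4 motifs could overlap, and a match describes letters only.

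Signals were compared as log2(signal + 16), with the probe set of highest mean over the 6 arrays representing its gene. With the deposited scaling, all 9 regulators passed an adjusted p of 0.05 between TAK1-deficient and wild-type Igκ+ cells (limma, Benjamini-Hochberg over 11696 genes): 8 were lower and 1, Cblb, was higher. This count has to be read against its background, since 75.9% of all genes tested passed, 49.8% lower and 26.1% higher. The balance of directions depends on how many dim genes are kept: 34.4% of the called genes were higher here, 59.9% without a filter and 13.7% with a filter at the 60th percentile. The median change of the 9 genes was -1.71 on the log2 scale, and that of all genes tested was -0.70. In these bulk samples fewer cells of a type and less RNA per cell cannot be told apart. The 2 groups did not overlap in any of the 9 genes, which was also the case for 89.6% of all genes tested.

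**Figure D1:**
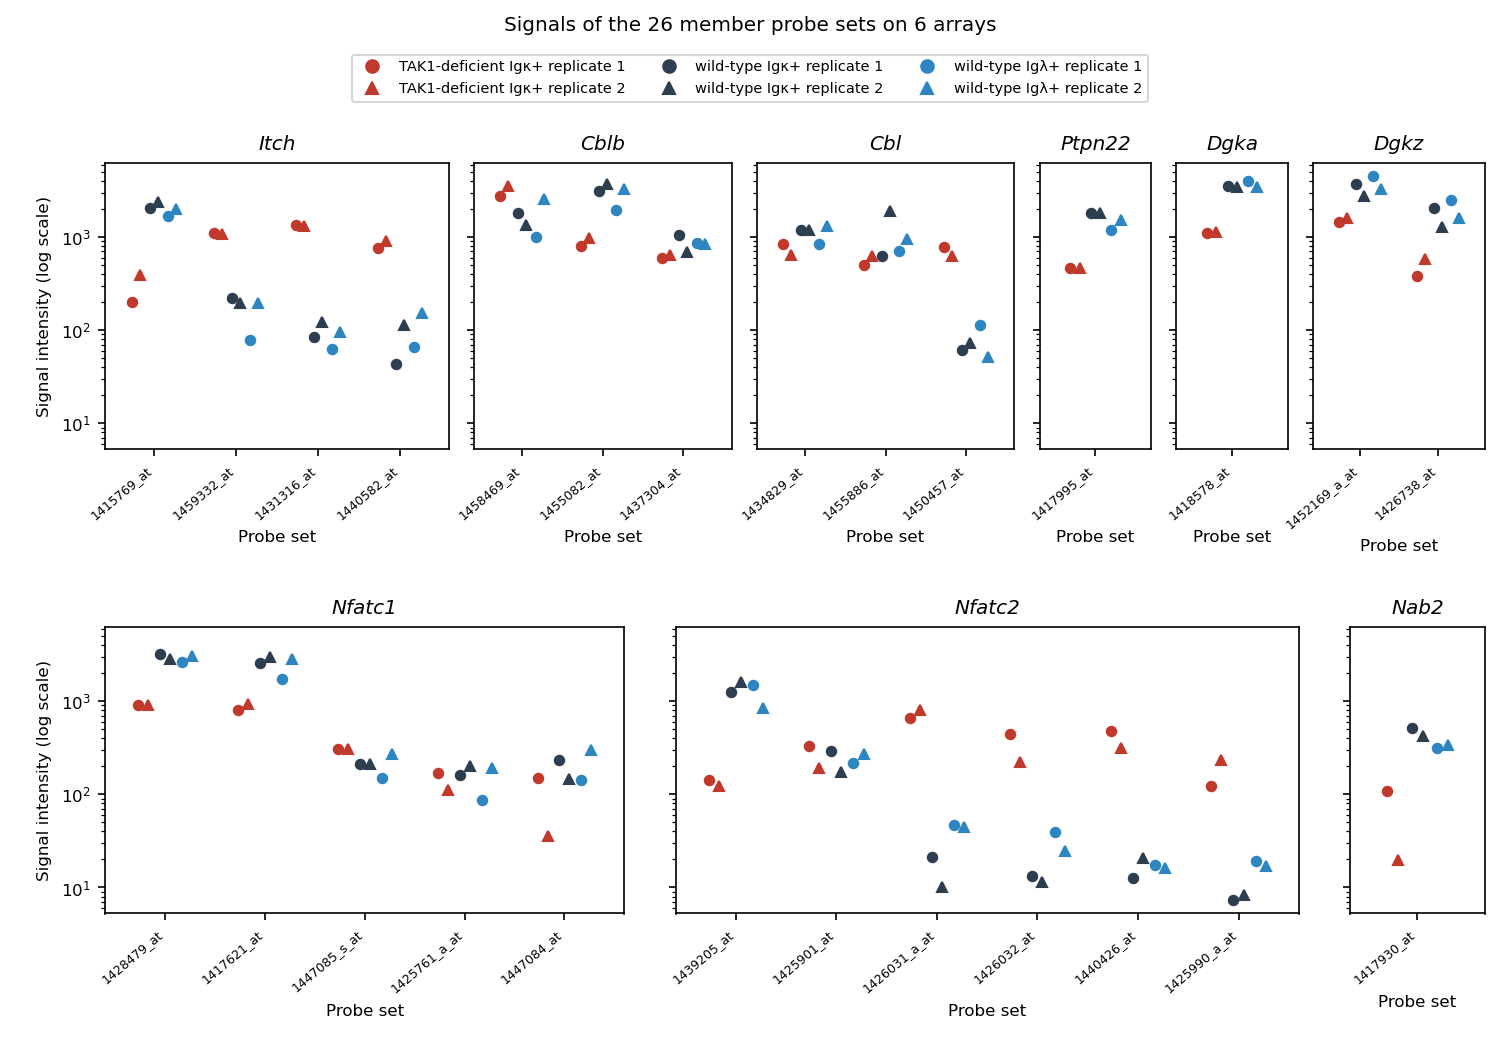
Signal of each of the 26 probe sets of the 9 genes on each of the 6 arrays (log axis, array signal units), with colour for the group, shape for the replicate and 1 panel per gene. The representing probe sets of Itch, Ptpn22, Dgka, Dgkz, Nfatc1, Nfatc2 and Nab2 lie lower on both TAK1-deficient arrays than on the 4 wild-type arrays, whereas several dim probe sets of Itch, Cbl and Nfatc2 lie higher.

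Itch is a HECT-type ubiquitin ligase that acts with the adaptor Ndfip1, and mice lacking it develop inflammation. Its representing probe set, 1415769_at, read 201 and 390 on the TAK1-deficient arrays, 2033 and 2391 on the wild-type Igκ+ arrays and 1686 and 2007 on the wild-type Igλ+ arrays. Both TAK1-deficient values lay far below all 4 wild-type values. The TAK1-deficient mean was 295 ± 134 (SD, n = 2) and the wild-type Igκ+ mean 2212 ± 254 (n = 2), a ratio of 7.49 and a log2 change of -2.90 ± 0.31 (SE; limma, adjusted p = 6.01e-05). Within its array this probe set stood at the 33.3 and 56.9 percentile in TAK1-deficient cells and at 90.2 and 91.8 in wild-type Igκ+ cells. The fall held under each scaling tried, at -3.77 with quantile normalization and -1.44 with an adjustment for the brightness of each probe set in wild-type cells (adjusted p = 0.00480).

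With the deposited scaling the other 3 Itch probe sets went the opposite way. Probe set 1459332_at read 1099 and 1068 on the TAK1-deficient arrays and 223 and 194 on the wild-type Igκ+ arrays, a log2 change of 2.29 ± 0.42 (SE; limma over all probe sets, adjusted p = 0.00104). For 1431316_at the signals were 1343 and 1324 against 84.0 and 123, a change of 3.52 ± 0.36 (adjusted p = 4.08e-05, limma). For 1440582_at they were 754 and 907 against 43.3 and 114, a change of 3.26 ± 0.49 (adjusted p = 0.000365, limma). All 3 were dim on wild-type arrays, at most 223 on each of the 4, and the mean of all 4 Itch probe sets gave a log2 change of 1.54, opposite to the representing one. All 3 also passed as higher with quantile normalization and the brightness adjustment (limma). With median centring 1431316_at passed at 1.13, while 1440582_at (0.88) and 1459332_at (-0.09) did not. With the spiked controls 1459332_at was lower, at -1.03 (adjusted p = 0.0430, limma). There 1431316_at (0.23) and 1440582_at (0.07) did not pass. The direction for Itch therefore rests on which probe set is read and on the scaling.

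Cblb encodes a RING-type ubiquitin ligase that raises the threshold for lymphocyte activation. Its representing probe set, 1458469_at, read 2787 and 3489 on the TAK1-deficient arrays, 1817 and 1338 on the wild-type Igκ+ arrays and 988 and 2560 on the wild-type Igλ+ arrays. Its Igκ+ groups did not overlap, but the second Igλ+ value came close to the TAK1-deficient ones. The log2 change was 0.99 ± 0.39 (SE; limma, adjusted p = 0.0473), and it turned to -1.39 with median centring and -2.44 with scaling on the spiked controls.

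A second Cblb probe set with nearly the same mean, 1455082_at, moved the other way. It read 800 and 971 on the TAK1-deficient arrays, 3148 and 3686 on the wild-type Igκ+ arrays and 1946 and 3287 on the wild-type Igλ+ arrays, a log2 change of -1.93 ± 0.26 (SE; limma over all probe sets, adjusted p = 0.000193). Its mean log2 signal over the 6 arrays was 10.95, against 10.96 for 1458469_at, and it represented the gene when means were taken on the linear scale or over wild-type arrays alone, alternatives added after the data were seen. The third, 1437304_at, read 593 and 647 against 1052 and 695, with a change of -0.46 ± 0.27 that did not pass (adjusted p = 0.158, limma). These probe sets gave Cblb no settled direction, and its call was lost when any 1 of the 4 Igκ+ arrays was left out (adjusted p between 0.0745 and 0.221, limma) and with a pseudocount of 1 or 64, no filter or no trend.

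Cbl, the related ligase that sorts activated receptors for degradation, changed least among the 9 genes. Its representing probe set, 1434829_at, read 846 and 645 on the TAK1-deficient arrays, 1192 and 1191 on the wild-type Igκ+ arrays and 842 and 1317 on the wild-type Igλ+ arrays, so TAK1-deficient and Igλ+ values overlapped. The log2 change between the Igκ+ groups was -0.68 ± 0.27 (SE; limma, adjusted p = 0.0481), and it turned to 0.51 with the brightness adjustment. This call sat at the threshold. It was lost with quantile normalization (adjusted p = 0.0925), without any 1 of the 4 Igκ+ arrays (adjusted p between 0.0509 and 0.221, limma) and, at an adjusted p of 0.0520, when every probe set was tested as its own feature with limma.

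Among the other Cbl probe sets, 1455886_at read 498 and 625 against 632 and 1892, and did not pass (log2 change -0.95 ± 0.46, adjusted p = 0.0869, limma). The dim 1450457_at read 779 and 623 on TAK1-deficient arrays, 61.0 and 73.6 on wild-type Igκ+ arrays and 113 and 51.3 on wild-type Igλ+ arrays, a log2 change of 3.10 ± 0.40 (adjusted p = 0.000157, limma). Probe set 1450457_at did not pass with median centring (0.72, adjusted p = 0.138, limma) or with the spiked controls (-0.08, adjusted p = 0.863, limma). With the deposited scaling, only the Cbl probe set dimmest in wild-type cells read higher in TAK1-deficient cells. All 3 dim Itch probe sets did so too.

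Ptpn22 encodes a phosphatase whose human variants are associated with autoimmune disease. Its single probe set, 1417995_at, read 468 on both TAK1-deficient arrays, 1813 and 1811 on the wild-type Igκ+ arrays and 1178 and 1518 on the wild-type Igλ+ arrays. Within each Igκ+ group both arrays gave nearly the same value, and all 4 wild-type values were above the TAK1-deficient ones. The wild-type Igκ+ mean exceeded the TAK1-deficient mean by a ratio of 3.87, a log2 change of -1.92 ± 0.21 (SE; limma, adjusted p = 7.67e-05). Ptpn22 was lower under each scaling tried, but with the brightness adjustment the change was -0.54 and no longer passed (adjusted p = 0.0680, limma).

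Both diacylglycerol kinases fell. Dgka, which is known to be raised in anergic T cells, is measured by 1418578_at, which read 1112 and 1128 on the TAK1-deficient arrays, 3545 and 3426 on the wild-type Igκ+ arrays and 3961 and 3452 on the wild-type Igλ+ arrays. Replicates differed little beside the gap between genotypes. The ratio of wild-type to TAK1-deficient Igκ+ means was 3.11, and the log2 change was -1.62 ± 0.15 (SE; limma, adjusted p = 3.45e-05), the smallest adjusted p of the 9 genes. With the brightness adjustment Dgka was at -0.23 and did not pass (adjusted p = 0.257, limma).

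Dgkz, which also limits diacylglycerol at the antigen receptor, had 2 probe sets that moved together. The representing 1452169_a_at read 1432 and 1613 on the TAK1-deficient arrays, 3709 and 2783 on the wild-type Igκ+ arrays and 4542 and 3304 on the wild-type Igλ+ arrays. Its log2 change was -1.07 ± 0.21 (SE; limma, adjusted p = 0.00187), turning to 0.33 with the brightness adjustment, and at -0.32 with quantile normalization it did not pass (adjusted p = 0.249). The second, 1426738_at, read 382 and 579 against 2039 and 1277, a change of -1.74 ± 0.33 (adjusted p = 0.00138, limma over all probe sets). Both Dgkz probe sets kept the 2 genotypes apart, and the first wild-type array of each light chain was the brighter of its pair on both.

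The NFAT factors move to the nucleus when calcineurin dephosphorylates them. Nfatc1, induced by B cell receptor signalling, is represented by 1428479_at, which read 918 and 911 on the TAK1-deficient arrays, 3250 and 2818 on the wild-type Igκ+ arrays and 2639 and 3081 on the wild-type Igλ+ arrays. All wild-type values lay well above both TAK1-deficient ones. The ratio of wild-type to TAK1-deficient Igκ+ means was 3.32, and the log2 change was -1.71 ± 0.17 (SE; limma, adjusted p = 4.58e-05), falling short of the threshold at -0.24 with the brightness adjustment (adjusted p = 0.287).

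A second bright Nfatc1 probe set, 1417621_at, read 804 and 929 against 2569 and 3001, a log2 change of -1.67 ± 0.26 (SE; limma over all probe sets, adjusted p = 0.000396). The remaining 3 were dim on wild-type Igκ+ arrays, between 148 and 231, and none passed. Their log2 changes were 0.50 for 1447085_s_at (adjusted p = 0.247), -0.36 for 1425761_a_at (adjusted p = 0.472) and -1.11 for 1447084_at (adjusted p = 0.116), all from limma. Of the last, the second TAK1-deficient array read no more than unspiked control probe sets. The 2 bright Nfatc1 probe sets thus gave like values, and with the deposited scaling the dim ones gave none that passed. With quantile normalization, median centring and spiked-control scaling all 3 dim ones passed as lower (limma). The first of these gave -1.12 for 1447085_s_at, -2.11 for 1425761_a_at and -2.69 for 1447084_at. With the brightness adjustment 1425761_a_at (-1.35, adjusted p = 0.0371, limma) and 1447084_at (-1.80, adjusted p = 0.0379, limma) passed. Neither bright one did there, at -0.24 and -0.18.

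Nfatc2 showed the largest fall of the 9 genes. Its product NFAT1 drives much of the gene programme of T cell anergy, and its representing probe set, 1439205_at, read 142 and 123 on the TAK1-deficient arrays, 1259 and 1604 on the wild-type Igκ+ arrays and 1501 and 848 on the wild-type Igλ+ arrays. Even the lowest wild-type value was far above both TAK1-deficient ones. The means were 132 ± 13.5 (SD, n = 2) and 1432 ± 243 (n = 2) in the Igκ+ groups, a ratio of 10.8 and a log2 change of -3.28 ± 0.33 (SE; limma, adjusted p = 4.55e-05). The probe set moved from the 84.6 and 87.5 percentile of its array to 23.5 and 20.7, and it stayed lower under each scaling tried, at -4.31 with quantile normalization and -2.01 with the brightness adjustment (adjusted p = 0.00193, limma).

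With the deposited scaling, the other 5 Nfatc2 probe sets all gave higher mean signals on the TAK1-deficient arrays. Of these, 1425901_at read 332 and 192 against 293 and 173, with overlapping groups and a log2 change of 0.16 ± 0.41 that did not pass (adjusted p = 0.741, limma). It turned to -1.46 with quantile normalization, -2.22 with median centring, -2.96 with the spiked controls and -0.31 with the brightness adjustment. The probe set 1426031_a_at read 660 and 814 against 21.4 and 10.2. It was bright enough to enter the fit only through the TAK1-deficient arrays, so its call there is no support, and 1 of its wild-type Igκ+ values was no brighter than unspiked controls. With the deposited scaling its log2 change ran from 3.32 with a pseudocount of 64 to 5.53 with a pseudocount of 1. Other scalings gave 2.85 with quantile normalization, 2.20 with median centring, 1.94 with the brightness adjustment and 1.74 with the spiked controls. Near-background wild-type signal was common to this probe set and to 1426032_at, 1440426_at and 1425990_a_at, which were too dim over the 6 arrays to be tested. On wild-type Igκ+ arrays those 3 read between 7.25 and 20.7, and on TAK1-deficient arrays between 123 and 483. The mean of the Nfatc2 probe sets gave a log2 change of 1.93, opposite to 1439205_at.

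Nab2 encodes a corepressor that binds EGR transcription factors. Its single probe set, 1417930_at, read 108 and 19.6 on the TAK1-deficient arrays, 520 and 422 on the wild-type Igκ+ arrays and 311 and 336 on the wild-type Igλ+ arrays. All wild-type values were higher, and the second TAK1-deficient value was no brighter than the unspiked control probe sets of that array, whose 95th percentile was 75.7. The log2 change was -2.87 ± 0.55 (SE; limma, adjusted p = 0.00155), or -1.97 without that array and -3.77 without the first. Nab2 stayed lower with every scaling tried, at -2.70 with the brightness adjustment (adjusted p = 0.00574, limma). Its call was kept under all 20 alternatives, but with 1 probe set it could not be turned by those that change the probe set read. Itch and Nfatc2, kept in 19 each, turned only with the mean of their probe sets.

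With the deposited scaling, the direction over the 26 probe sets followed how bright a probe set was in wild-type cells. Of the 23 probe sets bright enough to be tested, 10 were lower, 6 were higher, or 5 without 1426031_a_at, and 7 did not pass (limma over 21814 probe sets), beside 72.4% called among all probe sets tested, 41.3% lower and 31.1% higher. Among the 13 with a wild-type mean of 500 or more, 12 had lower signals in TAK1-deficient cells. Among the 9 below 200, 8 had higher ones, and between these bounds 2 were lower and 2 higher. All single-gene probe sets of the array divided in the same way: 89.5% of those at 500 or more were lower and 94.5% of those below 200 were higher. Of the 17 probe sets that did not represent their gene, 12 had the opposite sign to the one that did. The representing probe set is by choice the one of highest mean. The same share over all genes is not given, so whether this count is particular to these genes was not tested.

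**Figure D2:**
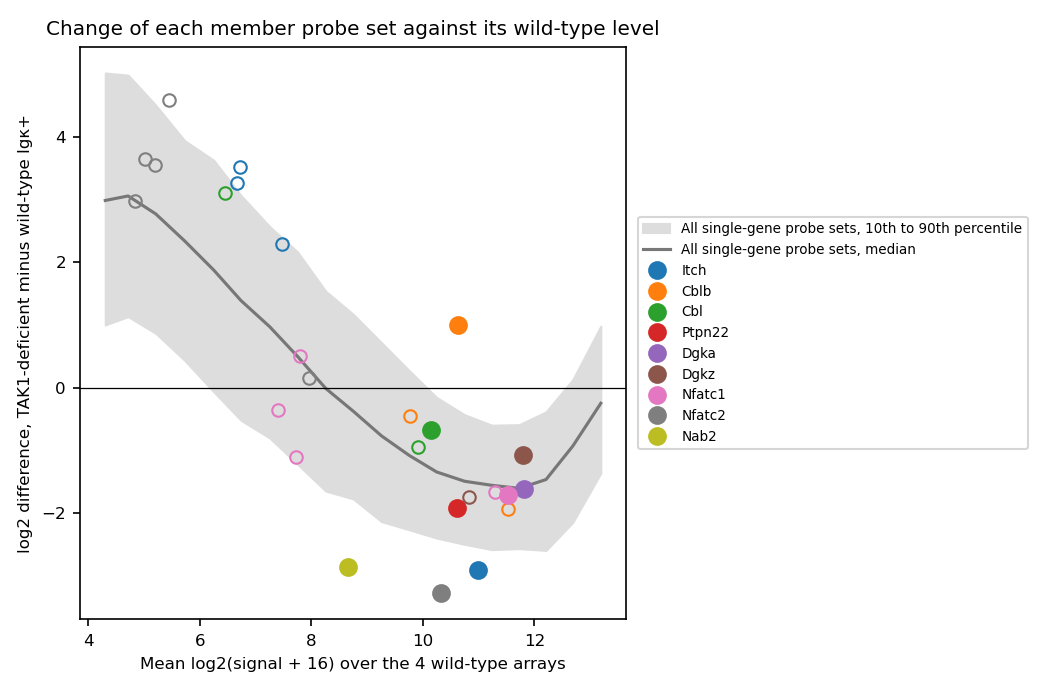
Log2 change between TAK1-deficient and wild-type Igκ+ cells (vertical axis) against the mean log2(signal + 16) over the 4 wild-type arrays, for the probe sets of the 9 genes (filled where a probe set represents its gene), over a band from the 10th to the 90th percentile of all probe sets of like brightness. Most points follow the band, which is above 0 for dim probe sets and below 0 for bright ones, and the representing probe sets of Itch, Nfatc2 and Nab2 lie under it.

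Against genes of like brightness, 3 of the 9 genes fell further than most. The 11696 genes were divided into 10 classes of equal size by wild-type level, class 1 being the dimmest. Itch lay in class 8, whose median log2 change was -1.50 and 10th percentile -2.51. Nfatc2 lay in class 7, with -1.42 and -2.40, and Nab2 in class 4, with -0.27 and -1.70. Each was below the 10th percentile of its class. Cblb, by its representing probe set, was above the 90th percentile of class 7, which was -0.34. Ptpn22, Cbl, Dgka, Dgkz and Nfatc1 lay within the range between those percentiles in their classes. With the brightness adjustment 4 of the 9 genes passed, Cblb higher and Itch, Nfatc2 and Nab2 lower, beside 42.7% of all genes tested, 24.7% higher and 18% lower. The count is thus near the background, and the adjustment was drawn from the same arrays.

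The scaling moved the whole set of genes. The median of all genes was -0.70 with the deposited scaling, -1.02 with quantile normalization, -3.08 with median centring, -3.94 with scaling on the spiked controls and 0.03 with the brightness adjustment, and among called genes 34.4%, 24.4%, 12.9%, 9.29% and 57.8% were higher. Relative to these medians, Itch, Nfatc2, Nab2, Ptpn22 and Nfatc1 were lower in each case. Dgka was at -1.62, -1.02, -4.00, -5.01 and -0.23 in the same order, and Nfatc1 at -1.71, -1.30, -4.09, -5.08 and -0.24, so under quantile normalization Dgka sat at the median of all genes.

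**Figure D3:**
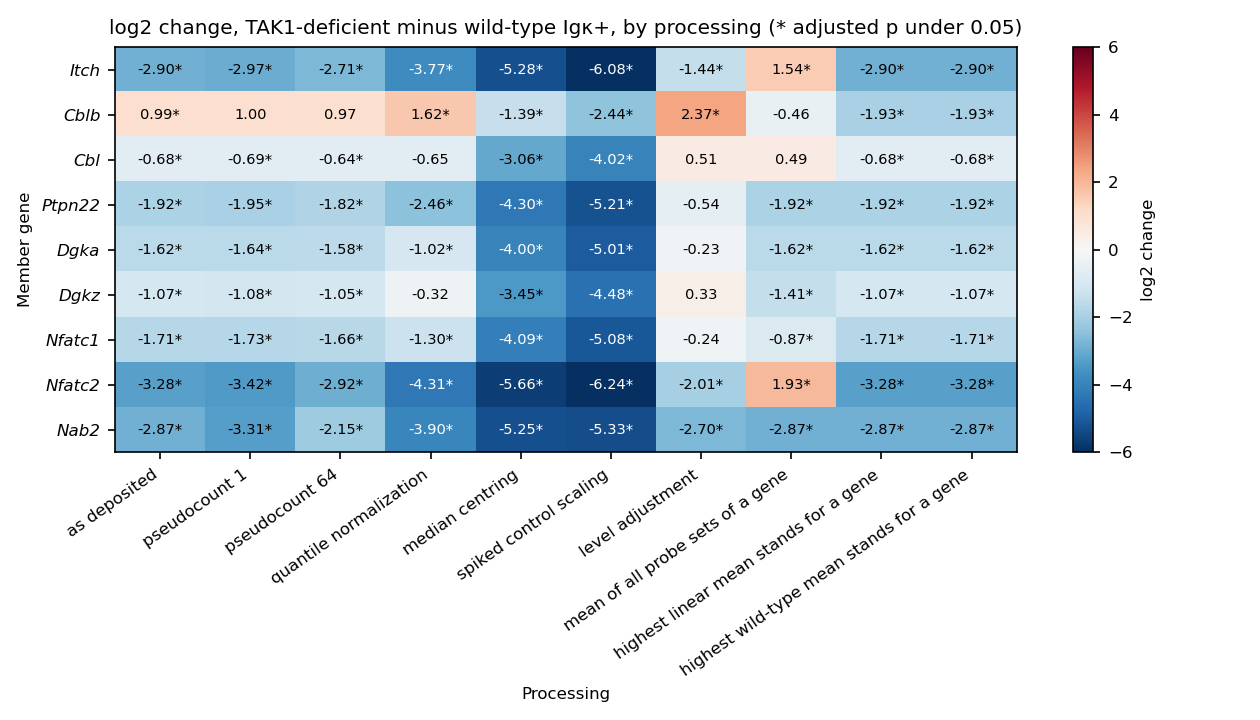
Log2 change of each of the 9 genes between TAK1-deficient and wild-type Igκ+ cells (rows) under the ways of processing named on the horizontal axis (columns), blue for lower, red for higher and a star for an adjusted p under 0.05; level adjustment is the adjustment for wild-type brightness. Nab2, which has 1 probe set, is lower in every column, Itch and Nfatc2 turn higher with the mean of all probe sets, and Cblb changes sign with the scaling and with the choice of probe set.

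Other genes of these pathways were taken from 5 lists. In each, "passed" means an adjusted p under 0.05 with limma over all genes. Among partners of the ubiquitin ligases, 11 of 15 listed genes were bright enough to test, and 6 fell, 2 rose and 3 did not pass (median log2 change -0.98). Ndfip1, which recruits Itch to its substrates, fell from a mean of 5028 to 988, a change of -2.37 ± 0.22 (SE), and it was lower under each scaling tried. The HECT ligase Nedd4 fell by 1.89 and the ubiquitin-conjugating enzyme Ube2d2a by 1.84 on the log2 scale, both with lower values under each scaling. With the brightness adjustment Nedd4 was at -0.55 and did not pass (adjusted p = 0.105, limma), and Ube2d2a was at -0.56 (adjusted p = 0.0341). Ubash3b, a phosphatase that binds CBL proteins, rose from 310 to 1610, a change of 2.32 that was -1.05 with scaling on the spiked controls and -0.06 with median centring. The ligase Wwp1 rose by 1.07, and was at -1.31 and -2.30 with median centring and the spiked controls.

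In the list of phosphatases and inhibitory receptors, which holds the neighbours of Ptpn22, all 18 genes on the array were tested, and 11 fell, 3 rose and 4 did not pass (median -1.21). The inhibitory IgG receptor Fcgr2b fell from 4217 to 747, a log2 change of -2.47 ± 0.16 (SE). Csk, the kinase that works with PTPN22 against Src-family kinases, fell by 1.79, and Pag1, the membrane adaptor that holds Csk, by 1.93 on the log2 scale. All 3 had lower values under each scaling tried, but with the brightness adjustment Csk (-0.31, adjusted p = 0.257) and Pag1 (-0.47, adjusted p = 0.0651) did not pass (limma), while Fcgr2b did, at -1.13. Those that rose were Inpp4b (2.91, or -0.34 with the spiked controls), Cd5 (1.81, or -0.30 with quantile normalization, -0.57 with median centring, -1.27 with the spiked controls and -0.05 with the brightness adjustment) and Cd72 (0.97, or -1.41 with median centring and -2.49 with the spiked controls). Cd5, which is raised on anergic B cells and is also a T cell protein, read 363 and 288 on the TAK1-deficient arrays and 108 and 59.9 on the wild-type Igκ+ arrays. The sum of T cell markers was also higher on the former with the deposited scaling. The median change of the tested T cell markers was smaller with other scalings, but several of them entered the fit only through the TAK1-deficient arrays.

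Genes that make, consume or bind diacylglycerol fell in 12 of 15 tested, 1 rose and 2 did not pass (median -0.80). Rasgrp3, a Ras activator that needs diacylglycerol, fell from 4033 to 699, a log2 change of -2.54 ± 0.28 (SE). The kinases Prkcd, which is needed for B cell tolerance in mice, and Prkd2 fell by 2.16 and 2.06 on the same scale, and these 3 were lower under each scaling tried, at -1.20, -0.67 and -0.64 with the brightness adjustment. Dgke, another diacylglycerol kinase, rose by 0.96, did not pass at 0.26 with quantile normalization, and was at -1.42 with median centring and -2.33 with the spiked controls.

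The list for calcineurin and NFAT regulation had 20 tested genes, of which 17 fell, 0 rose and 3 did not pass (median -1.20). The calcium channel gene Orai2 fell by 2.63, the calcineurin subunit gene Ppp3r1 by 2.32 and the IP3 receptor gene Itpr3 by 2.14 on the log2 scale, all lower under each scaling tried, at -1.67, -0.83 and -0.77 with the brightness adjustment. Ppp3r1 read 478 and 538 on the TAK1-deficient arrays and 2473 and 2725 on the wild-type Igκ+ arrays. In the small list of EGR and NAB factors, 4 genes were tested, 1 fell, 1 rose and 2 did not pass (median -0.01). Egr3, an early target of NFAT, fell by 1.71, but with the brightness adjustment was at -0.22 and did not pass (adjusted p = 0.621, limma). Nab1, the relative of Nab2, rose by 0.69, and was at -1.69 with median centring and -2.71 with the spiked controls. These counts stand beside the 49.8% of all genes that fell and the 26.1% that rose.

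With the brightness adjustment, under which 24.7% of all genes were called higher and 18% lower, the same lists were less one-sided. The ligase partners then had 3 higher and 2 lower, the phosphatases and inhibitory receptors 7 higher and 2 lower, the diacylglycerol genes 6 higher and 4 lower, the calcineurin and NFAT genes 5 higher and 7 lower, and the EGR and NAB factors 3 higher and 0 lower. The calcineurin and NFAT genes had a median of -0.36 there, against 0.03 for all genes.

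**Figure D4:**
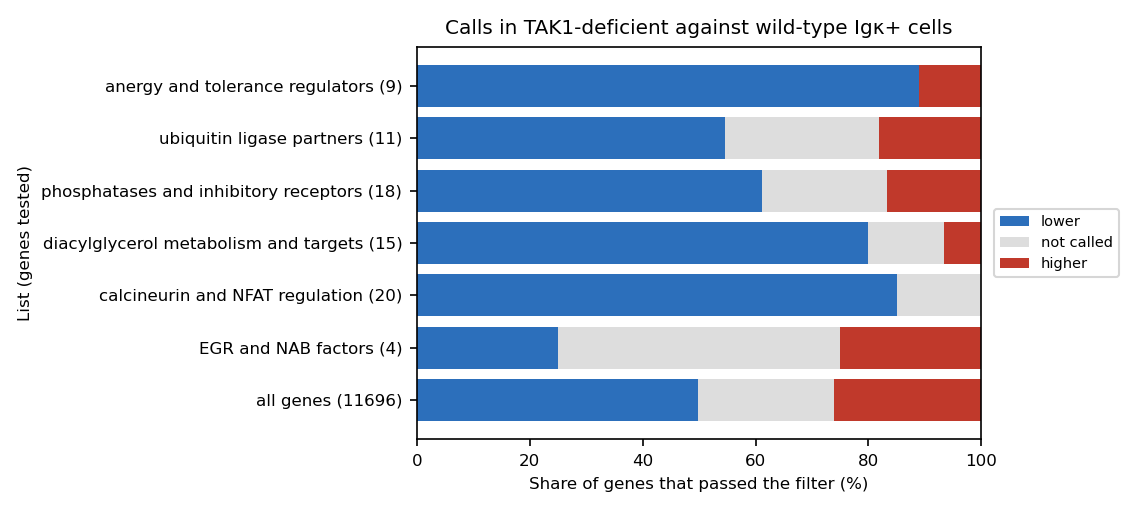
Share of tested genes (percent, horizontal axis from 0) that were lower, not called or higher in TAK1-deficient against wild-type Igκ+ cells, for the 9 genes, the 5 pathway lists and all genes tested, with the deposited scaling. The calcineurin and NFAT list has 17 of 20 genes lower, and all genes tested have 49.8% lower and 26.1% higher.

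Between wild-type Igλ+ and Igκ+ cells, 0 of the 9 genes and 0 of the 23 tested probe sets passed an adjusted p of 0.05 (limma), beside 0% of all genes and probe sets called. At an unadjusted p of 0.05, 0 of the 9 genes passed, against 2.04% of all genes, and 1 of the 23 probe sets, against 1.66% of all probe sets. The 95% intervals show what this many arrays could have missed. Dgka differed by 0.09 on the log2 scale (interval -0.27 to 0.44) and Nfatc1 by -0.09 (-0.48 to 0.31), the 2 narrowest of the 9. Dgkz differed by 0.27 (-0.22 to 0.76) and Cbl by -0.18 (-0.80 to 0.45). The intervals of Itch (-0.26, from -0.97 to 0.45), Nfatc2 (-0.33, from -1.09 to 0.43) and Cblb (0.03, from -0.88 to 0.94) leave room for changes of nearly 1 log2 unit or more. Nab2 had the widest, at -0.52 (-1.78 to 0.75).

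Ptpn22 came closest to a difference between the light chain groups, at -0.43 (interval -0.92 to 0.06, unadjusted p = 0.0758, limma). Both Igλ+ values, 1178 and 1518, were below both Igκ+ values, 1813 and 1811. Itch and Nab2 were likewise lower on both Igλ+ arrays than on both Igκ+ arrays, so that 3 of the 9 genes did not overlap, all lower. Among all genes 22.7% did not overlap between these groups, 9.24% lower. The levels of neighbouring groups in these genes, wild-type Igκ+ and Igλ+, thus did not differ beyond the error of the fit. In all 9 genes the order of the wild-type groups is therefore unsettled.

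Among single probe sets, 1426031_a_at of Nfatc2 was the one with an unadjusted p under 0.05. It read 46.6 and 44.5 on the Igλ+ arrays and 21.4 and 10.2 on the Igκ+ arrays, 1 of the latter no brighter than unspiked controls (unadjusted p = 0.0195, adjusted p = 0.999985, limma). The log2 difference ran from 0.46 with a pseudocount of 64 to 1.55 with a pseudocount of 1. Both 1426032_at and 1425990_a_at, dimmer still, were also higher on both Igλ+ arrays, at 39.0 and 24.7 against 13.4 and 11.5, and at 19.4 and 17.2 against 7.25 and 8.29. Of the 23 tested probe sets 4 did not overlap between these groups, beside 21.6% of all. The dimmer pair was not tested. Probe set 1425990_a_at was no brighter than unspiked controls on 3 of the 4 wild-type arrays, and unspiked control probe sets had a median of 6.15 ± 0.480 on Igλ+ and 4.70 ± 0.412 on Igκ+ arrays.

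**Figure D5:**
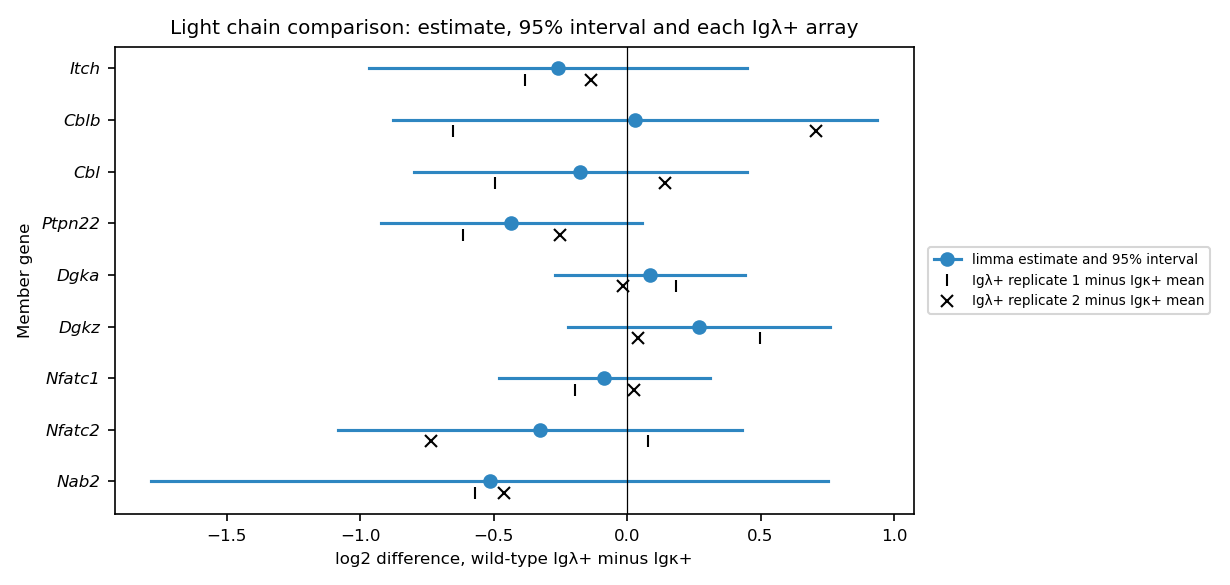
Log2 difference between wild-type Igλ+ and wild-type Igκ+ cells for each of the 9 genes (horizontal axis), with the 95% interval of the limma fit as a bar and each Igλ+ array, minus the Igκ+ mean, as a mark under it. Every interval includes 0, and that of Nab2 is the widest, from -1.78 to 0.75.

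Granulocyte markers were high on the first Igλ+ array. Monocyte and macrophage markers summed to 5504 on the second Igλ+ array and 15172 on the first. Megakaryocyte and basophil markers summed to 119 and 9736 in the same order, and erythroid markers to 1049 and 3120. Each of these marker lists was thus brightest on the first Igλ+ array. With that array left out 0 of the 9 genes passed between the light chain groups, but the Igλ+ group then holds 1 array, assumed to vary like the other groups, and its part in these values was not tested. The pathway lists likewise had 0 called genes in this comparison. Across the 20 alternatives, 180 values of the 9 genes were computed between Igλ+ and Igκ+ cells, and 0 passed, with a smallest adjusted p of 0.493 (limma).

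As a description of the shape over the 6 arrays, the gene outside the set whose log2 signals ran most alike was Smg6 for Itch (Pearson r = 0.999), Frat2 for Cblb (0.989), Pim2 for Cbl (0.990), Nucks1 for Ptpn22 (0.999), Tcea2 for Dgka (0.9998), Zfp956 for Dgkz (0.9996), Mxd1 for Nfatc1 (0.9997), Trmt1l for Nfatc2 (0.999) and Faf2 for Nab2 (0.998). Such likeness was common over these arrays. Of 11687 genes, 40.8% had r above 0.9 with Itch, 44.6% with Dgka and 41.8% with Nfatc2, 14.1% with Nab2, 1.36% with Cblb and 1.65% with Cbl.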

How the data were processed

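RNA of 6 samples was hybridized to 6 Affymetrix arrays. The deposited values are linear signal intensities, for which the submitters' processing notes name MAS5 with no version. The intensities the authors deposited have the same mean of 500 on each array once the lowest and highest 2% are left out, so each array carries 1 scaling factor, which lifts the background of a weak array. The number of arrays limits the precision. Replicate 2 is the array whose title ends in "-rep". Nothing in the labels says that replicates are separate animals, so the p-values cover the spread between these arrays, and that spread may be technical.

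Probe sets were named from the platform annotation: 34945 had 1 gene, 932 several, 9160 none and 64 were controls. Entrez identifiers of 34741 were found in RefSeq (GRCm38.p6), and 0 symbols changed. Signals became log2(signal + 16), a scale that understates changes at low signal. A gene was represented by its probe set of highest mean log2 signal. Of 18193 genes, 11696 had a mean over 6.34, the 40th percentile of the array, and were tested. The design had not said whether this mean was linear or log2. A linear mean was run first, and the log2 mean was then taken to follow the earlier processing; of the 9 genes, this changed the probe set of Cblb alone, and with it the sign of its change. A second fit took each of 21814 probe sets as a feature. Both used limma 3.58.1 in R 4.3.3 (group means over 6 arrays, 3 residual degrees of freedom, eBayes with trend, two-sided, Benjamini-Hochberg, 0.05). The gene fit alone was also run on simulated data. The simulated data held far fewer changed genes than were called between the Igκ+ groups, so they do not check the fit in that setting. Alternatives were pseudocounts of 1 and 64, no filter, the 60th percentile, quantile normalization, median centring, spiked-control scaling, a lowess adjustment (span 0.2) for wild-type brightness, the mean of a gene's probe sets, no trend, the title suffix as a block, only the 4 arrays compared, each array left out and, added after the data were seen, 2 other choices of probe set. All 9 genes with every probe set are named. From each pathway list, up to 3 genes per direction are named, those with the largest change past the threshold and without overlap. The 9 genes and the lists were chosen with earlier results of these data known. Plots used matplotlib 3.10.9 and Python 3.11.15.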

Additional observations from a re-analysis of the deposited data

How the results depend on the processing

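With the brightness adjustment 4 of the 9 genes were called between TAK1-deficient and wild-type Igκ+ cells, and 4995 genes in all, against 8878 with the deposited scaling and 14703 without a filter on dim genes. Directions turned as follows, each as a log2 change. Cblb was at -1.39 with median centring, -2.44 with spiked-control scaling, -0.46 with the mean of its probe sets and -1.93 with the probe set of highest linear or highest wild-type mean. Cbl was at 0.51 with the brightness adjustment and 0.49 with the mean of its probe sets, Dgkz at 0.33 with the brightness adjustment, and Itch at 1.54 and Nfatc2 at 1.93 with the mean of their probe sets. The alternatives differ in the probe sets read or in the scaling, and the cause was not tested further. Between Igλ+ and Igκ+ cells, where none passed, Cblb was at -0.12, -0.16, -0.13 and -0.43 under those same choices in turn, Dgka at -0.064 with median centring and -0.10 with spiked controls, and Nfatc2 at 0.34 with the mean of its probe sets. Leaving out 1 array gave ranges in that comparison of -0.65 to 0.71 for Cblb, -0.49 to 0.14 for Cbl, -0.014 to 0.18 for Dgka, -0.20 to 0.026 for Nfatc1 and -0.73 to 0.078 for Nfatc2, and 0 to 68 genes called in all, 7 without the first Igλ+ array and 68 without the second. A group left with 1 array was assumed to vary like the others.

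Of 20 alternatives, the call between the Igκ+ groups was kept in 20 for Nab2, 19 each for Itch, Nfatc2, Ptpn22, Dgka and Nfatc1, 18 for Dgkz, 10 for Cbl and 7 for Cblb. Nab2, Ptpn22 and Dgka have 1 probe set each, so the alternatives that change the probe set read could not turn them. Without 1 of the Igκ+ arrays Cblb lay between 0.77 and 1.21 and Cbl between -0.87 and -0.49. Same-numbered arrays deviated together with correlations of 0.0123, 0.0257 and 0.222, so the suffix was not taken as a pairing. With it as a replicate block 8 of the 9 genes and 8915 genes in all were called, Cbl being lost (adjusted p = 0.0620, limma). Signal over background limits Nab2 and the dim probe sets of Nfatc1 and Nfatc2.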
